A study of Mus musculus with 12 samples.

Results

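The mRNAs of 36 aminoacyl-tRNA synthetase genes were compared between mammary tumors and benign mammary tissue of mice that carry an activated HER2 transgene. The genes were chosen by symbol alone, as the single letter of an amino acid followed by "ars" with no suffix or with a 1 or a 2, together with Eprs, Farsa and Farsb. Of the 16411 genes listed, 36 such genes are described, and all 36 passed the filter on low counts. Without a suffix, or with a 1, are the 20 genes of the cytosolic enzymes, and with a 2 the 16 genes of the mitochondrial enzymes.

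Aminoacyl-tRNA synthetases join each amino acid to the transfer RNAs that carry its anticodons, the step at which the genetic code is read into protein. Mammalian cells keep a set in the cytosol and another in mitochondria, where only the few proteins encoded by mitochondrial DNA are made, and all of these enzymes are encoded in the nucleus. Several cytosolic synthetases are bound together in a multi-synthetase complex, whereas others work alone, and Gars and Kars each give rise to both a cytosolic and a mitochondrial enzyme.

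RNA was taken from 6 tumors and 6 benign samples of untreated female mice of the MMTV/neu ndl-YD5 line, kept on an FVB background, and the tumors and benign samples came from different mice. In this line the MMTV promoter, active mainly in mammary epithelium, drives an oncogenic form of Neu, the rodent HER2, in which a YD site has been added back. All 12 samples are labelled with the genotype MMTV-Neu-NDL-YD5 transgenic, so the benign group is mammary tissue of transgenic animals in which no tumor was visible and is not wild-type tissue. Tumors were watched for from 10 weeks of age, and the age of each animal is not given in the labels.

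Total counts per sample ran from 5240853 to 8588567, and the lowest count of any synthetase gene in any sample was 17. Erbb2, which encodes the rodent HER2, ran from 44.8 to 73.7 CPM in benign tissue and from 1989 to 16630 CPM in tumors, where CPM is the count of a gene scaled to the size of its library by TMM. Benign samples 3, 4 and 6 stood apart from the rest: their 9 skeletal muscle markers summed to between 33860 and 85330 CPM, against at most 348 CPM in benign samples 1, 2 and 5 and 0.843 to 130 CPM in tumors. The 6 adipocyte markers summed to 3776 to 7544 CPM in benign tissue and to 21.2 to 52.7 CPM in tumors, and the 7 epithelial markers to 691 to 1934 and 2580 to 4307 CPM. No marker on these lists was at 0 in every sample of a group. The 4 brown fat markers summed to 2455 CPM in benign sample 4 and 568 CPM in benign sample 6. Their sums were 22.1 to 103 CPM in the other benign samples and 21.1 to 66.5 CPM in tumors. The tumor sums were mostly Ppargc1a, which was higher in tumors, at 19.7 to 62.7 CPM against 4.12 to 30.7 CPM in benign tissue. Ucp1 and Cidea were lower, at most 6.91 and 12.2 CPM in tumors against up to 1434 and 873 CPM in benign tissue. Several counts and fold changes below are also given without benign samples 3, 4 and 6, or from a fit with a muscle marker score and the level of Ucp1, a brown fat gene, as covariates. These 2 fits were added once the data had been seen. The part of these cell types in the differences was not tested, and in bulk tissue fewer cells of a type and less RNA per cell cannot be told apart.

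**Figure D1:**
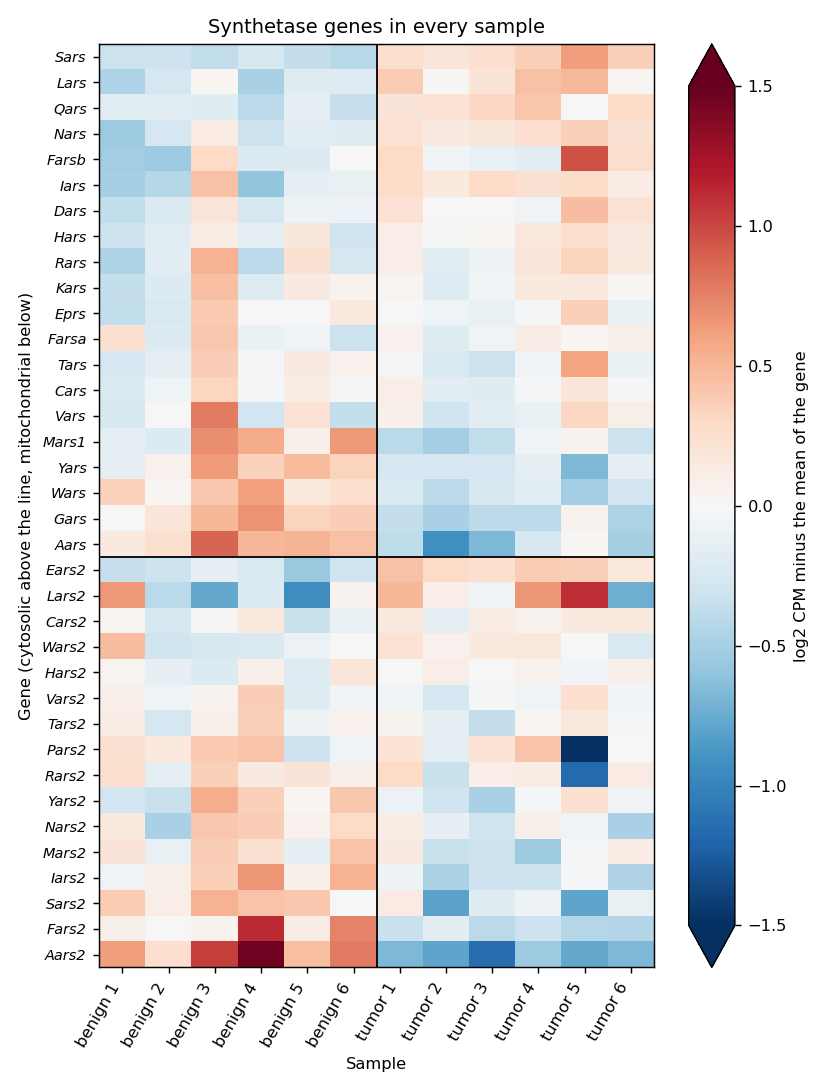
Level of the 36 synthetase genes in each of the 12 samples, as log2 CPM minus the mean of the gene over all samples (color scale, red above and blue below the mean, with the end colors for values beyond the scale). The black lines separate cytosolic from mitochondrial genes and benign samples from tumors, and within each set genes are ordered by their fold change. Sars and Ears2 are above their mean in all 6 tumors, Aars2 is below it in all 6, and benign 3 and tumor 5 are the highest of their groups for 20 of the 36 genes each.

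The synthetases did not move as a block. Of the 36 genes, 8 were higher in tumors (22.2%), 9 were lower (25.0%) and 19 did not pass an adjusted p-value of 0.1 in the quasi-likelihood test of edgeR. Over all 13191 genes tested, 28.2% were higher and 34.8% were lower, so 47.2% of the synthetases were called in either direction beside 63.0% of all genes. The log2 fold changes of the 36 genes, tumor against benign, had a median of -0.03, beside -0.06 over all genes tested. With benign samples 3, 4 and 6 left out, 9 of the 36 were higher and 7 lower, and the median was 0.08. Each direction held genes of different amino acids, and the cytosolic and mitochondrial sets differed in their counts.

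Among the 20 cytosolic genes, 7 were higher in tumors (35.0%), 5 were lower (25.0%) and 8 were not called, with a median log2 fold change of 0.01. Among the 16 mitochondrial genes, only Ears2 was higher (6.25%), 4 were lower (25.0%) and 11 were not called, with a median of -0.20. Without benign samples 3, 4 and 6, the cytosolic counts were 7 higher and 4 lower and the mitochondrial counts 2 higher and 3 lower, where 26.7% and 28.7% of all genes were called higher and lower. In that setting the medians were 0.21 for cytosolic and 0.03 for mitochondrial genes. With the covariates, 2 mitochondrial genes were higher and 2 lower, with a median of 0.07. Fewer genes were called over all in that fit, 2951 higher and 3496 lower of 13191, beside 3720 and 4594 in the main fit. The median over all genes was -0.02 with the covariates. Single samples moved the mitochondrial values as well: 4 genes were higher without benign sample 1 (median -0.13), 2 were higher without tumor 2 (median -0.10) or tumor 6 (median -0.13), and the median was -0.07 without tumor 5.

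**Figure D2:**
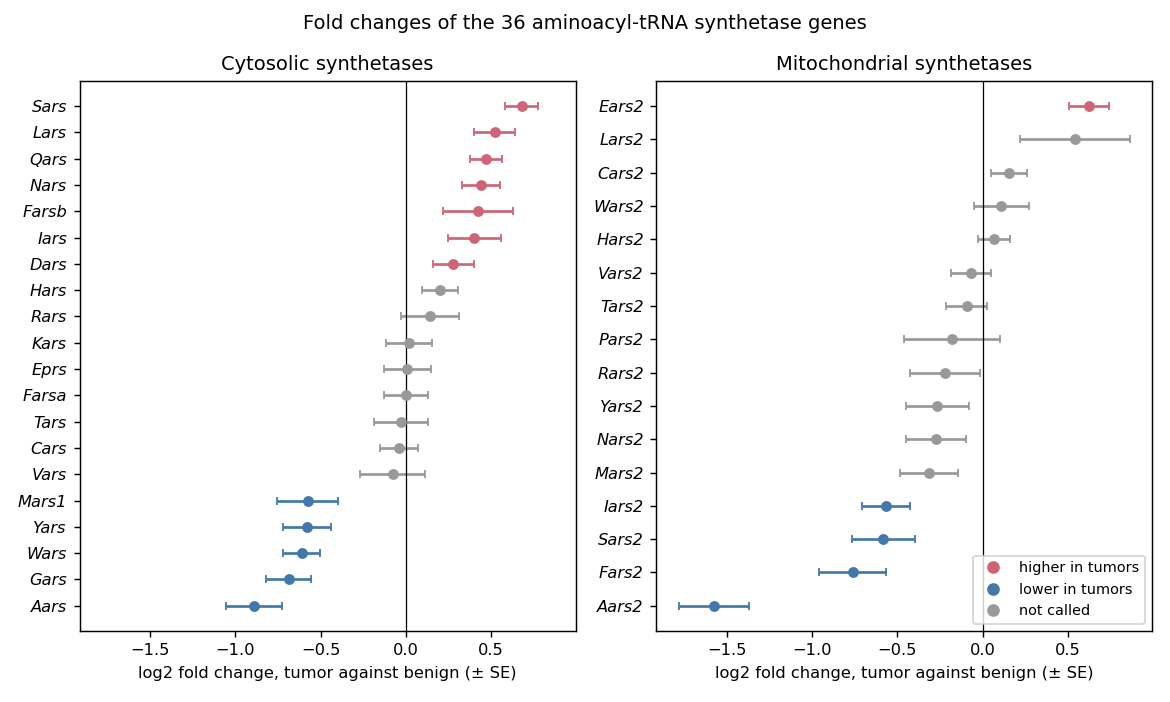
Log2 fold change of each synthetase gene, tumor against benign, with its standard error (bars), for cytosolic genes at left and mitochondrial genes at right. Red genes were higher and blue genes lower in tumors at an adjusted p-value of 0.1 in edgeR, and grey genes were not called. Cytosolic genes run from -0.89 (Aars) to 0.68 (Sars) and mitochondrial genes from -1.58 (Aars2) to 0.62 (Ears2).

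The cytosolic genes that rose included Sars, Lars, Qars, Nars, Farsb, Iars and Dars. Sars, which charges serine, had the largest rise: its lowest, median and highest values were 142, 150 and 161 CPM in benign tissue and 216, 235 and 293 CPM in tumors. Every tumor was above every benign sample, and the mean was 1.601 times as high (log2 fold change 0.68 ± 0.10 SE, adjusted p = 5.87e-05 in edgeR). Over all genes, every tumor was above every benign sample in 14.7%, and among cytosolic synthetases this held for Sars, Qars and Nars.

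Qars charges glutamine and has no mitochondrial partner gene, because mitochondria make their glutaminyl-tRNA by another route. It ran from 112 through a median of 131 to 133 CPM in benign tissue and from 147 through 175 to 196 CPM in tumors (log2 fold change 0.47 ± 0.10, edgeR adjusted p = 0.00099). Nars, the asparagine enzyme, ran from 119 through 149 to 188 CPM in benign tissue and from 190 through 202 to 222 CPM in tumors (0.44 ± 0.11, edgeR adjusted p = 0.00429). In both genes every tumor was above every benign sample, and in Nars the lowest tumor was only just above the highest benign sample. Lars, the leucine enzyme and a member of the multi-synthetase complex, ran from 68.8 through 82.3 to 98.2 CPM in benign tissue and from 97.7 through 118 to 135 CPM in tumors. Its log2 fold change was 0.52 ± 0.12 (edgeR adjusted p = 0.00268), with 5 of 6 tumors above every benign sample.

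Iars, Dars and Farsb also rose, by smaller amounts or with more spread between samples. Iars, for isoleucine, ran from 61.3 through 75.7 to 125 CPM in benign tissue and from 99.1 through 109 to 114 CPM in tumors, so the groups overlapped only through benign sample 3 at 125 CPM. Its log2 fold change of 0.40 ± 0.16 (edgeR adjusted p = 0.043) was 0.61 without benign samples 3, 4 and 6. Dars, for aspartate, ran from 73.4 through 85.5 to 108 CPM in benign tissue and from 91.7 through 103 to 131 CPM in tumors (0.28 ± 0.12, edgeR adjusted p = 0.0644), and 3 of 6 tumors were above every benign sample. It was 0.41 without benign samples 3, 4 and 6 (adjusted p = 0.0369). Its call was lost without benign sample 4, at an adjusted p of 0.118.

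Farsb encodes the beta subunit of phenylalanyl-tRNA synthetase, whose alpha subunit is encoded by Farsa. Farsb ran from 53.0 through 66.8 to 94.7 CPM in benign tissue and from 68.9 through 83.5 to 149 CPM in tumors. Tumor 5 alone held the value of 149 CPM, and the other tumors reached at most 95.1 CPM. The log2 fold change of 0.42 ± 0.21 (edgeR adjusted p = 0.0985) was just inside the threshold and fell to 0.29 without tumor 5 (adjusted p = 0.142). It also missed the threshold when benign sample 1, 2, 4, 5 or 6 was left out, with adjusted p-values from 0.105 to 0.144, and it was 0.71 without benign samples 3, 4 and 6 (adjusted p = 0.0372). Farsa had means of 48.4 CPM in both groups (log2 fold change 0.00 ± 0.13), and the difference between the 2 subunits was not tested.

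The cytosolic genes that fell were Aars, Gars, Wars, Yars and Mars1. Aars, which charges alanine, ran from 116 through 145 to 192 CPM in benign tissue and from 55.6 through 77.4 to 106 CPM in tumors, with every tumor below every benign sample. The tumor mean was 0.54 of the benign mean (log2 fold change -0.89 ± 0.16, edgeR adjusted p = 0.000515). Wars, for tryptophan, was the other cytosolic gene in which every tumor was below every benign sample, against 21.2% of all genes. It ran from 76.7 through 92.4 to 115 CPM in benign tissue and from 52.6 through 62.5 to 67.0 CPM in tumors (-0.61 ± 0.11, edgeR adjusted p = 0.000387).

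Gars makes the glycine enzyme of both compartments. It ran from 95.04 through 122 to 152 CPM in benign tissue and from 67.9 through 72.7 to 99.2 CPM in tumors, and 5 of 6 tumors were below every benign sample (log2 fold change -0.69 ± 0.13, edgeR adjusted p = 0.000664). Tumor 5 was the exception, at 99.2 CPM. Without benign samples 3, 4 and 6 the values of Aars, Gars and Wars were -0.69, -0.47 and -0.43, and all 3 calls held.

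Yars, for tyrosine, ran from 53.9 to 92.7 CPM in benign tissue and from 37.2 to 54.1 CPM in tumors (-0.58 ± 0.14, edgeR adjusted p = 0.00327), and it was -0.39 without benign samples 3, 4 and 6 (adjusted p = 0.0809). Mars1, the methionine enzyme that also charges the initiator tRNA of cytosolic translation, ran from 54.0 to 101 CPM in benign tissue and from 43.7 to 64.7 CPM in tumors (-0.58 ± 0.18, edgeR adjusted p = 0.015). The mean of Mars1 was 97.0 CPM in benign samples 3, 4 and 6 and 58.9 CPM in benign samples 1, 2 and 5. Without benign samples 3, 4 and 6 its log2 fold change was -0.13 (adjusted p = 0.49), and the call was lost.

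The 8 cytosolic genes not called were Cars, Eprs, Farsa, Hars, Kars, Rars, Tars and Vars, with log2 fold changes from -0.08 (Vars) to 0.20 (Hars). Kars, for lysine, which also serves both compartments, had the highest level per length among cytosolic genes, with 75.9 CPM per kilobase of transcript in benign tissue and 76.9 in tumors. It ran from 119 through 145 to 207 CPM in benign tissue and from 133 through 155 to 168 CPM in tumors (log2 fold change 0.02 ± 0.14, edgeR adjusted p = 0.914). The tumor values of Kars lay within the benign range. Of the genes that supply 2 compartments, Gars was thus called and Kars was not, and the difference between them was not tested. Hars, for histidine, had a log2 fold change of 0.20 ± 0.10 (edgeR adjusted p = 0.117) and passed the threshold in DESeq2 (adjusted p = 0.0461).

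Of the 8 synthetases of the multi-synthetase complex, 4 were higher in tumors (Dars, Iars, Lars and Qars), Mars1 was lower, and Eprs, Kars and Rars were not called, with a median log2 fold change of 0.21. Eprs is a fusion enzyme that charges both glutamate and proline, and its mean was 178 ± 34 CPM in benign tissue against 179 ± 24 CPM in tumors (SD, n = 6). Of the 12 cytosolic synthetases outside the complex, 3 were higher (25.0%) and 4 were lower (33.3%), with a median of -0.03. In the same fit, 28.2% of all genes tested were higher and 34.8% lower. Without benign samples 3, 4 and 6 the counts were 4 higher and 0 lower inside the complex and 3 higher and 4 lower outside it. In that setting 26.7% of all genes were called higher and 28.7% lower. The difference between genes inside and outside the complex was not tested. Synthetases fall into classes I and II by the fold of their catalytic domain: 3 of the 9 cytosolic genes of class I were higher and 3 lower, and 4 of the 10 of class II were higher and 2 lower, with Eprs counted in neither because it holds a domain of each class.

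Among the mitochondrial genes, Aars2 had the largest fall of all 36. It ran from 18.03 through a median of 24.8 to 41.9 CPM in benign tissue and from 6.86 through 9.22 to 10.4 CPM in tumors, with every tumor below every benign sample. Its tumor mean was 0.34 of the benign mean (log2 fold change -1.58 ± 0.21, edgeR adjusted p = 2.85e-05). Aars2 averaged 33.03 CPM in benign samples 3, 4 and 6 and 20.8 CPM in benign samples 1, 2 and 5, and without the first 3 its log2 fold change was -1.16 (adjusted p = 0.000384). The call of Aars2 held in all 21 alternative settings.

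In Fars2, for phenylalanine, every tumor was also below every benign sample. It ran from 26.2 through 27.8 to 56.5 CPM in benign tissue and from 19.2 through 20.2 to 23.1 CPM in tumors (log2 fold change -0.76 ± 0.20, edgeR adjusted p = 0.00507). Its highest benign values, 56.5 and 43.5 CPM, were those of benign samples 4 and 6, and it was at 27.04 CPM in benign sample 3. Benign samples 4 and 6 also had the highest sums of brown fat markers, and a link with Fars2 was not tested. The log2 fold change of Fars2 without benign samples 3, 4 and 6 was -0.37 (edgeR adjusted p = 0.0261). With the covariates it was -0.29, and the call was lost (adjusted p = 0.281).

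Sars2, for serine, ran from 16.7 through 22.0 to 24.1 CPM in benign tissue and from 9.63 through 15.1 to 18.2 CPM in tumors (log2 fold change -0.58 ± 0.18, edgeR adjusted p = 0.0159), with 5 of 6 tumors below every benign sample. Iars2, for isoleucine, ran from 103 through 125 to 169 CPM in benign tissue and from 76.5 through 85.8 to 105 CPM in tumors (-0.57 ± 0.14, edgeR adjusted p = 0.00386). Iars2 averaged 153 CPM in benign samples 3, 4 and 6 and 110 CPM in benign samples 1, 2 and 5, and without the first 3 it was -0.27 and no longer called (adjusted p = 0.107).

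Ears2, for glutamate, was the mitochondrial gene that rose. It ran from 10.99 through 13.1 to 14.8 CPM in benign tissue and from 18.1 through 20.3 to 22.0 CPM in tumors, so the groups did not overlap and the mean was 1.54 times as high (log2 fold change 0.62 ± 0.12, edgeR adjusted p = 0.000584). Ears2 is the enzyme whose product, glutamate on the glutamine tRNA, is converted to glutaminyl-tRNA in mitochondria by the amidotransferase of Qrsl1, Gatb and Gatc. Of these 3 subunits, Qrsl1 and Gatb fell, with log2 fold changes of -1.34 ± 0.28 and -1.10 ± 0.22 (edgeR adjusted p = 0.00137 and 0.000895), and Gatc had -0.33 (adjusted p = 0.156). Qrsl1 and Gatb were still called without benign samples 3, 4 and 6, at -0.90 and -0.71 (adjusted p = 0.0361 and 0.0161).

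Lars2, for leucine, had the highest level per length of all mitochondrial genes, with 71.5 CPM per kilobase in benign tissue and 104 in tumors. It ran from 164 through 254 to 492 CPM in benign tissue and from 187 through 388 to 673 CPM in tumors (log2 fold change 0.54 ± 0.32, edgeR adjusted p = 0.168). The ranges overlapped almost throughout, with the highest benign value in sample 1 and the highest tumor value in sample 5. Without benign sample 1, Lars2 had a value of 0.83 and was called (adjusted p = 0.034), and without tumor 6 it had 0.76 and was called (adjusted p = 0.048). The other 10 mitochondrial genes not called, namely Cars2, Hars2, Mars2, Nars2, Pars2, Rars2, Tars2, Vars2, Wars2 and Yars2, had log2 fold changes from -0.31 (Mars2) to 0.15 (Cars2). Cars2, for cysteine, passed the threshold without benign samples 3, 4 and 6 (0.30, adjusted p = 0.0615).

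Summed over genes, the cytosolic synthetases held 2010 ± 289 CPM in benign tissue against 2124 ± 196 CPM in tumors, and the mitochondrial synthetases 759 ± 142 and 799.8 ± 184 CPM (SD, n = 6). Lars2 alone held 279 and 405 CPM of the mitochondrial sums. Without Lars2 the sum was 481 ± 69.1 CPM in benign tissue, with a range of 404 to 591, and 394.5 ± 24.75 CPM in tumors, with a range of 360.1 to 431, and the groups overlapped. Per length, the lowest member was Mars2 of the mitochondrial methionine enzyme, at 1.25 CPM per kilobase in benign tissue and 1.01 in tumors. Its annotated transcript, of 11294 bases, was the longest of all members, and its mean CPM was 14.1 and 11.4. By CPM the lowest member was Pars2, with means of 7.08 in benign tissue and 6.25 in tumors.

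**Figure D3:**
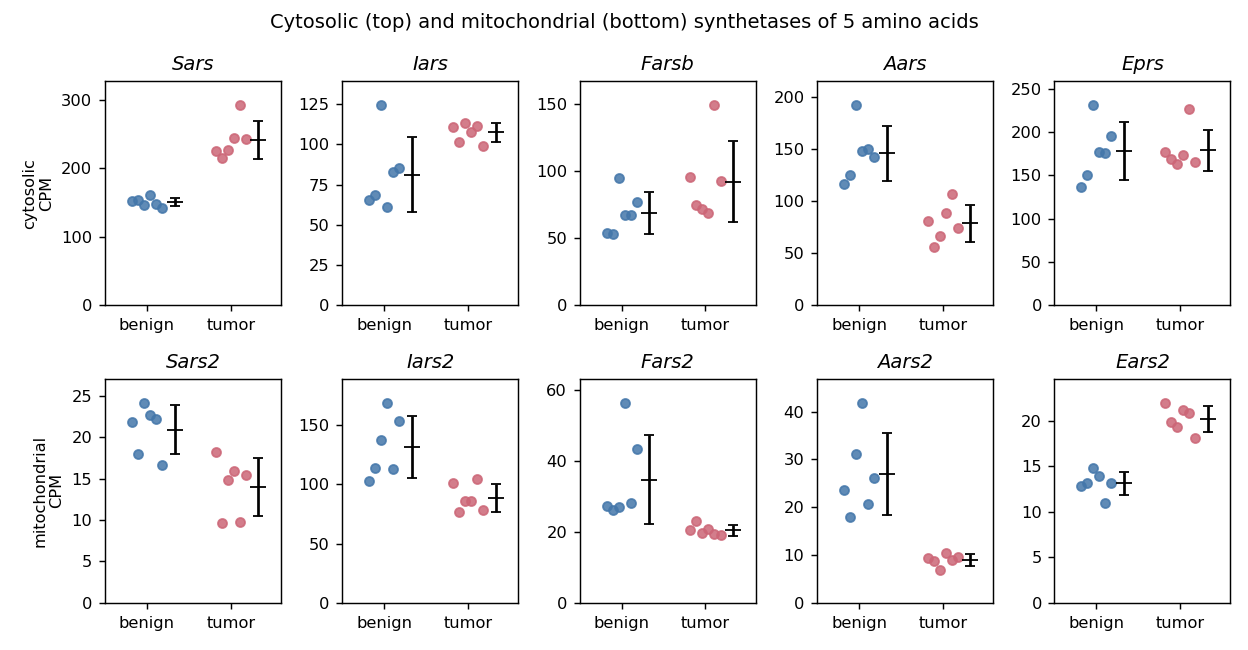
CPM in each sample (points), with the group mean and SD (bars, n = 6), for the cytosolic gene (top row) and the mitochondrial gene (bottom row) of the same amino acid, with benign samples in blue and tumors in red. Sars, Iars and Farsb rose while Sars2, Iars2 and Fars2 fell, Aars and Aars2 both fell, and Ears2 rose while the means of Eprs were 178 and 179 CPM. The call of Iars2 was lost without benign samples 3, 4 and 6, and those of Iars2 and Fars2 with the covariates.

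Cytosolic and mitochondrial synthetases of the same amino acid were set side by side within each sample, as a log2 ratio of their CPM, which does not depend on how libraries are scaled. The CPM here are not divided by transcript length, so only the change of a ratio between samples is read, and not its sign. There were 17 such ratios over the 16 mitochondrial genes, with Farsa and Farsb both set against Fars2 and Eprs set against both Ears2 and Pars2. In 3 ratios both genes were called, in opposite directions, and each time the cytosolic gene rose and the mitochondrial gene fell: serine, isoleucine, and phenylalanine with Farsb. There were 2 such ratios without benign samples 3, 4 and 6, as Iars2 was not called, and with the covariates there was 1, serine. Where Farsb missed the threshold, as without tumor 5 or without benign sample 1, 2, 4, 5 or 6, serine and isoleucine were the 2 that remained. The genes for alanine, Aars and Aars2, were the only of these pairs called in the same direction, and both fell. The reverse, a cytosolic fall beside a mitochondrial rise, could have been seen only for Eprs with Ears2, so its absence says little. Ears2 was the only mitochondrial gene called higher, and Eprs was not called. Taken singly, 28.2% of all genes tested were higher and 34.8% lower, and opposite calls among other gene pairs were not counted.

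For serine the log2 ratio of Sars to Sars2 lay between 2.61 and 3.10 in benign tissue and between 3.63 and 4.91 in tumors. For isoleucine the ratio of Iars to Iars2 lay between -1.46 and -0.14 in benign tissue and between 0.10 and 0.41 in tumors. In both ratios every tumor was above every benign sample. Among single genes this held for 14.7% of all genes tested, and its share among ratios of other gene pairs was not counted. The other 15 ratios overlapped, and in none was every tumor below every benign sample.

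The mean ratio was higher in tumors for 11 of the 17 and lower for 6, with a median difference of 0.14. The largest falls were those of Wars to Wars2, from a mean of 2.87 ± 0.34 to 2.14 ± 0.16, and of Eprs to Ears2, from 3.74 ± 0.25 to 3.14 ± 0.16 (SD, n = 6). Tumor 5 gave 3.09 for Rars to Rars2, where the other tumors lay between 1.40 and 1.76, and 6.70 for Eprs to Pars2, where they lay between 4.35 and 4.87. Its Pars2 value was 2.17 CPM, which rested on the 17 counts given above, and its Rars2 value was 11.6 CPM.

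**Figure D4:**
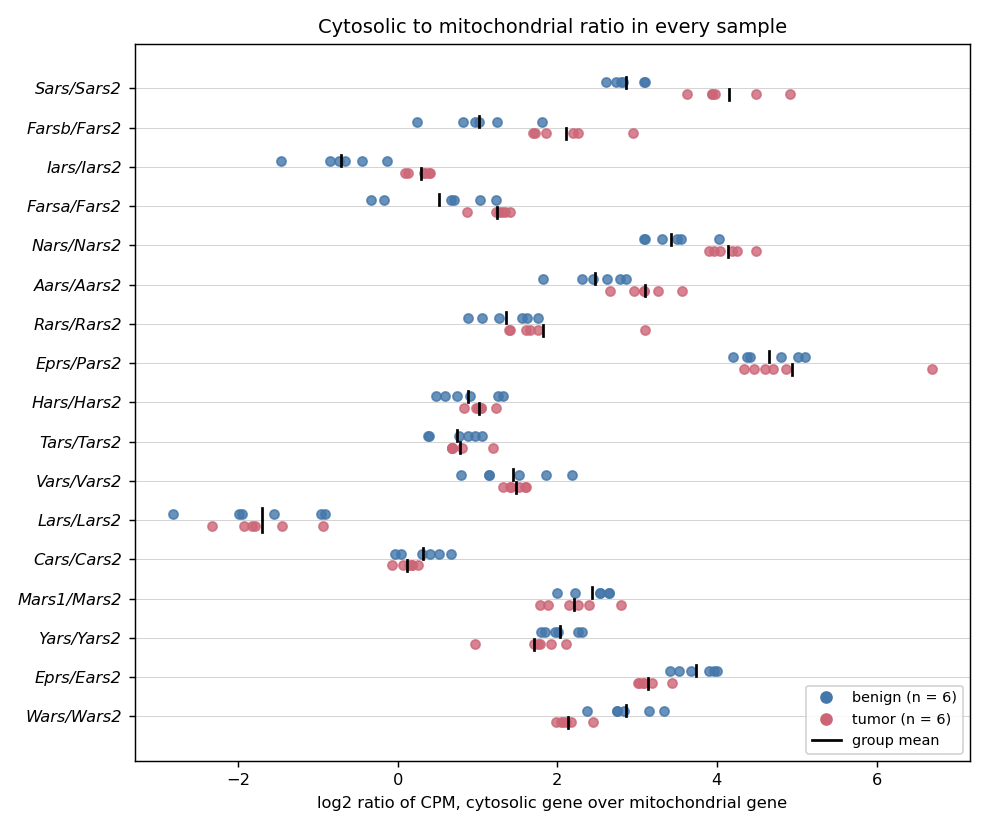
Log2 ratio of the CPM of the cytosolic gene over that of the mitochondrial gene of the same amino acid in each sample (blue benign, red tumor, black line the group mean), ordered by the difference of the group means. Tumors lie above every benign sample for Sars/Sars2 and Iars/Iars2, and for the other 15 ratios the groups overlap. Among single genes, every tumor was above every benign sample in 14.7% of all genes tested.

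The samples of a group differed in their synthetase levels in a way that many members shared. Tumor 5 was the highest tumor for 20 of the 36 genes (55.6%) and for 14 of the 20 cytosolic genes (70%), whereas it was the highest for 26.0% of all genes tested. Benign sample 3 was the highest benign sample for 20 of the 36 (55.6%) and for 15 of the 20 cytosolic genes (75.0%), against 14.7% of all genes. At the low end, tumor 2 was the lowest tumor for 15 genes and benign sample 1 the lowest benign sample for 12. The summed cytosolic level was 2469 CPM in tumor 5 and 1894 to 2163 CPM in the other tumors, and 2531 CPM in benign sample 3 and 1696 to 2075 CPM in the other benign samples.

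Several cytosolic synthetase genes are known targets of ATF4, the transcription factor that is made when amino acids run short or the endoplasmic reticulum is stressed, and that raises genes of amino acid uptake, synthesis and charging. A list of 18 genes of this amino acid response held 7 higher in tumors (38.9%) and 5 lower (27.8%), beside 28.2% and 34.8% of all genes. The median log2 fold change of the list was -0.05. Its counts were 7 and 4 and its median 0.33 without benign samples 3, 4 and 6, where 26.7% and 28.7% of all genes were called. With the covariates they were 6 and 3 and the median 0.41, where 2951 and 3496 of 13191 genes were called. Trib3, a pseudokinase that feeds back on the response, rose most, from 5.80 to 12.1 CPM in benign tissue to 42.7 to 122 CPM in tumors (3.01 ± 0.27, edgeR adjusted p = 1.02e-06). Phgdh, the first enzyme of serine synthesis, fell most, from 88.4 to 201 CPM in benign tissue to 24.9 to 107 CPM in tumors (-1.51 ± 0.34, edgeR adjusted p = 0.00226). The uptake genes Slc7a1, Slc7a5 and Slc7a11 rose, and Slc3a2 was not called (0.39 ± 0.22, edgeR adjusted p = 0.142). Slc7a11 was low, at 0.71 to 2.78 CPM in benign tissue and 1.65 to 6.39 CPM in tumors, and its groups overlapped. The synthesis genes Asns, Phgdh and Psat1 fell, as did Mthfd2, whose call was lost with the covariates (adjusted p = 0.301). Shmt2 was not called (0.19 ± 0.19, edgeR adjusted p = 0.405), nor was Atf4 itself (-0.31 ± 0.21, edgeR adjusted p = 0.234). Asns lost its call without benign samples 3, 4 and 6 (-0.61, adjusted p = 0.119) and with the covariates (-0.41, adjusted p = 0.267). Slc7a5 and Slc7a1 were still called without these benign samples (adjusted p = 0.0945 and 0.0958) and lost the call with the covariates (adjusted p = 0.286 and 0.206).

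In tumor 5 several of these genes were high together with the synthetases. Atf4 was at 238 CPM there and at 107 to 129 CPM in the other tumors, and Trib3 at 122 against 42.7 to 65.2 CPM. Asns, which makes asparagine, was at 71.2 CPM in tumor 5 and at 22.7 to 42.8 CPM in the other tumors, and Phgdh at 107 against 24.9 to 50.2 CPM. Tars, for threonine, was at 120 CPM in tumor 5 and at 63.6 to 77.7 CPM elsewhere among tumors, although Yars was lowest there, at 37.2 against 49.8 to 54.1 CPM, and so was Cebpb, at 251 against 321 to 356 CPM. These genes were picked out after their values in this sample were seen.

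Promoter sequence was examined because ATF4 acts through an amino acid response element. Windows of 300 bases, from 250 before to 50 after the start of the gene in RefSeq (GRCm38.p6), were at hand for 27 of the 36 genes, 13 cytosolic and 14 mitochondrial, and Aars2 had 2 windows, which makes 28. They did not include Cars, Hars, Hars2, Lars, Nars, Pars2, Rars, Vars and Wars. Searched on both strands, TGATGNAA was present in the windows of Aars, Gars, Iars, Tars and Yars and in no mitochondrial window, that is in 5 of 28 windows (17.9%) against 3.97% of all 32851 windows. The exact form TGATGCAA, which the former contains, was present in 4 of 28 (14.3%), all of these but Gars, against 0.895% of all windows. The 5 genes did not share a direction: Aars, Gars and Yars fell, Iars rose and Tars was not called. A match is a match of letters and not a measured binding site, and the motifs were chosen after the values of the genes were seen.

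The 5 windows that hold TGATGNAA are shown from 130 bases before to 30 bases after the start, 5′ to 3′ on the strand of the gene, with each match on either strand in capitals. They were read at chr8:111033712-111033871 for Aars (plus strand), chr6:55037871-55038030 for Gars (plus strand), chr4:129189773-129189932 for Yars (plus strand), chr13:49682000-49682159 for Iars (plus strand) and chr15:11399629-11399788 for Tars (minus strand).
Aars: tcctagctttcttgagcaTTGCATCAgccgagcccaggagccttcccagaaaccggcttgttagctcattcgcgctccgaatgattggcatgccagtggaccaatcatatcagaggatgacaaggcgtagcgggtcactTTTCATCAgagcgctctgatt
Gars: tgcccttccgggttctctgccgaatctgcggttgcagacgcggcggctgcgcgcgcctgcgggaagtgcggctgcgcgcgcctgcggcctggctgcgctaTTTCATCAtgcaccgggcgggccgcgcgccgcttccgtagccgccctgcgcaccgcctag
Yars: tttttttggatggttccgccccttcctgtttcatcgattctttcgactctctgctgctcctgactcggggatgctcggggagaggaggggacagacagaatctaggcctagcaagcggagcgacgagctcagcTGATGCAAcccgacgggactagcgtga
Iars: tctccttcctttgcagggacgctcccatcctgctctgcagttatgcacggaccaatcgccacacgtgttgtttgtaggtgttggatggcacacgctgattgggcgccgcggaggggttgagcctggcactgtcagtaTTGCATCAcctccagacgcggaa
Tars: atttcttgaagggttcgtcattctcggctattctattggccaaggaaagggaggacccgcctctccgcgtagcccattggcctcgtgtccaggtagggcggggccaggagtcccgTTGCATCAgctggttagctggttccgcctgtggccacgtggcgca
Aars holds a pair of matches, the first an exact one that begins 112 bases before the start, and Gars and Tars hold theirs 30 and 15 bases before it. The matches of Yars and Iars begin 3 and 7 bases after the start.

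Other promoter letters searched in the 28 windows were CACGTG, an E-box, in 5 (17.9%, against 7.15% of all windows), CCGGAAGT, an ETS site, in 3 (10.7%, against 3.89%), CCAAT in 13 (46.4%, against 37.4%), GGGCGG, a GC box, in 19 (67.9%, against 35.7%) and CAAGATGGC, a YY1 site, in 2 (7.14%, against 1.24%). CACGTG was found in Aars, Ears2, Farsb, Iars and Tars, of which 3 rose, Aars fell and Tars was not called.

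The partners of the synthetases were read in the same fit, from lists drawn up by function. The multi-synthetase complex is held together by 3 scaffold proteins. Aimp1 fell, from 45.6 to 59.5 CPM in benign tissue to 37 to 44.2 CPM in tumors (log2 fold change -0.39 ± 0.10, edgeR adjusted p = 0.00416), with every tumor below every benign sample. Aimp2 had -0.53 ± 0.31 (edgeR adjusted p = 0.167) and Eef1e1 had 0.22 ± 0.20 (edgeR adjusted p = 0.359). Without benign samples 3, 4 and 6, Aimp2 had 0.23 and was not called, and Eef1e1 had 0.49 and was called higher (adjusted p = 0.0659).

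Of 13 editing and accessory charging factors, Dtd2 was higher (7.69%) and 7 were lower (53.8%), beside 28.2% and 34.8% of all genes tested. The median log2 fold change of the list was -0.33. Dtd2, which clears wrongly attached amino acids from tRNAs, had 0.36 ± 0.15 (edgeR adjusted p = 0.0645), and its call was lost with the covariates (adjusted p = 0.124). The largest fall was that of Aarsd1, which removes serine wrongly attached to the alanine tRNA, from 29.5 to 42.2 CPM in benign tissue to 8.67 to 18.4 CPM in tumors (-1.44 ± 0.18, edgeR adjusted p = 2.27e-05). Prorsd1, Pstk, Tarsl2 and Trnt1 fell as well, beside Qrsl1 and Gatb. Tarsl2 is itself a threonyl-tRNA synthetase gene, placed on this list because its symbol does not meet the rule. Without benign samples 3, 4 and 6 the lower calls were 4, those of Aarsd1, Prorsd1, Qrsl1 and Gatb, where 28.7% of all genes were lower. Pstk, Tarsl2 and Trnt1 were then at -0.20, 0.19 and -0.19 and not called.

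Cytosolic elongation factors carry charged tRNAs to the ribosome and move it along the mRNA. Eef1a2 was left out by the filter, with 397 to 984 CPM in benign samples 3, 4 and 6 and at most 2.50 CPM in every other sample. Of the 7 genes tested, Eef2k, the kinase of elongation factor eEF2, was higher (0.35 ± 0.16, edgeR adjusted p = 0.0865). Eef1g was lower (-0.50 ± 0.14, edgeR adjusted p = 0.00737) and 5 were not called. Of 11 mitochondrial translation factors, Guf1 was higher (0.63 ± 0.14, edgeR adjusted p = 0.00167) and 5 were lower, with a median of -0.33. Over all genes tested, 28.2% were higher and 34.8% lower, beside 14.3% each for the 7 cytosolic factors. For the mitochondrial factors these shares were 9.09% and 45.5%. Gfm1, a mitochondrial elongation factor, fell most, from 51.0 to 125 CPM in benign tissue to 29.7 to 47.0 CPM in tumors (-1.16 ± 0.25, edgeR adjusted p = 0.00154), and it was -0.47 without benign samples 3, 4 and 6. In that setting the counts for mitochondrial translation factors were 2 higher and 4 lower, and the median was 0.02, where 26.7% and 28.7% of all genes were called. With the covariates the counts were 1 and 1, where 2951 of 13191 genes were called higher and 3496 lower.

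**Figure D5:**
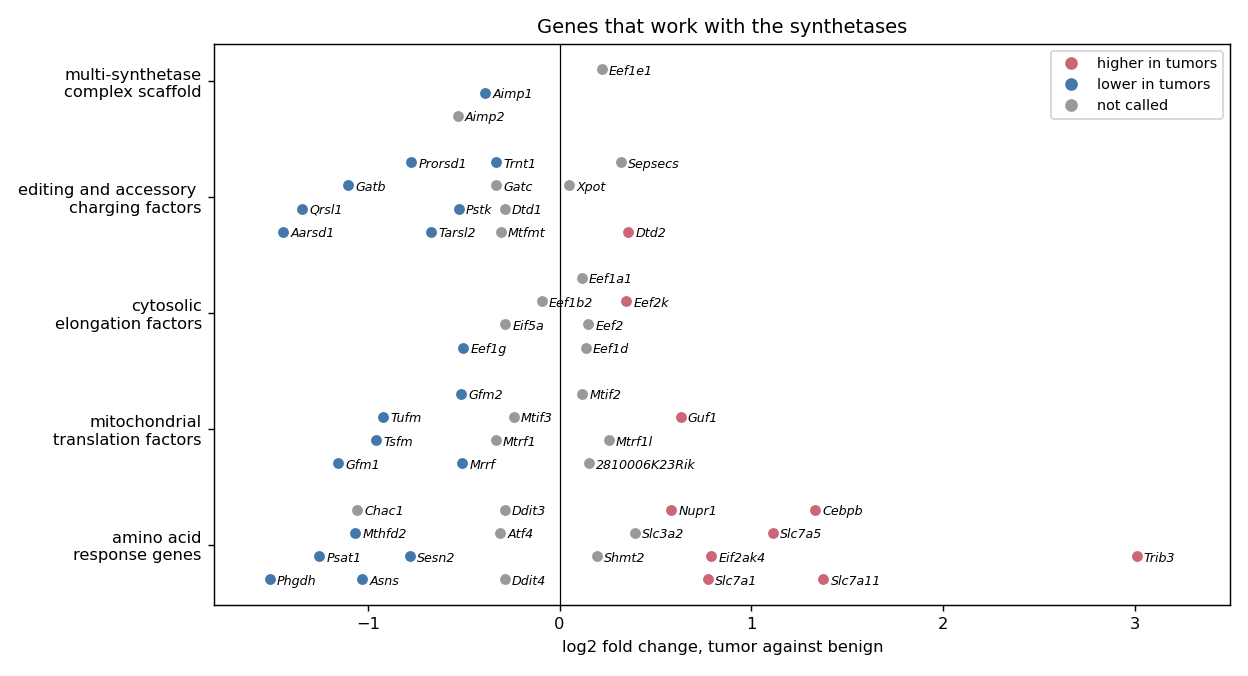
Log2 fold change, tumor against benign, of genes that work with the synthetases, grouped by role (rows), with heights within a row chosen only to keep the names apart. Red genes were higher and blue genes lower in tumors at an adjusted p-value of 0.1 in edgeR, and grey genes were not called. Values run from -1.51 for Phgdh to 3.01 for Trib3, and 7 of the 13 accessory factors and 5 of the 11 mitochondrial translation factors are blue. Over all genes tested, 34.8% were lower in tumors.

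Some members share sequence with other annotated genes, so part of their counts is uncertain. At 95% identity over at least 70 bases of annotated transcript (GENCODE M21), 13 of the 36 genes shared sequence with another gene. On the same strand these were Aars with Exosc6 over 1326 bases, Iars with the pseudogene Gm4849 over 1656 bases at 96.0% identity, and Lars2 with Gm15564 over 72 bases at 98.6% identity. On the opposite strand there were 10 genes, among them Iars2 with Rab3gap2 over 2034 bases, Farsb with Sgpp2 over 250 bases and Hars with Hars2 over 195 bases. The library kit keeps the strand, and whether the counting used it is not given in the sources used here.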

How the data were processed

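RNA of 6 tumors and 6 benign mammary samples, grouped by their labels, was enriched for poly A, made into libraries with a directional kit and sequenced as paired reads. The submitters' processing notes name Trim Galore, Salmon, DESeq2 and mm10, with versions not given in the sources used here. The values the authors deposited are estimated counts for each gene, rounded to whole numbers and left unscaled. Every gene listed has at least 5 counts in all, and 0 columns were left without a sample.

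From these counts, genes were kept by filterByExpr (at least 10 counts in enough samples, 15 in total), given TMM factors and tested two-sided by quasi-likelihood with edgeR 4.0.16 (R 4.3.3), with Benjamini-Hochberg adjustment over 13191 genes and a threshold of 0.1, that of the study. Only rows of synthetases and their partners are printed. The rule finds 37 genes, of which 1 is not reported here and is left out of all counts and sums. Levels per kilobase used the principal protein-coding transcript of GENCODE M21, and transcripts were compared with blastn 2.17.0. The test was tried on simulated counts.

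The lowest, median and highest values of each group, or its range, are given for the 5 called genes with the largest and the 5 with the smallest log2 fold change, amino acids with opposite calls, the highest level per kilobase in each compartment, Gars and Kars, and from partner lists the extremes and all scaffold genes. Other named genes were chosen after their values were seen. The members and lists were chosen with earlier results of these data known. Alternatives were DESeq2 1.42.0, upper-quartile and total-count scaling, 2 other filters, a threshold of 0.05, a replicate block and leaving out each sample. Chosen after seeing the data were a fit without benign samples 3, 4 and 6 and a fit with a muscle score and Ucp1 as covariates. Replicates of a group differed by more than sampling noise (lowest chi-square per degree of freedom 12.5). Replicates are separate samples. The paper calls them biological replicates, and whether each is a separate mouse is not in the labels. The p-values set the difference of the groups against the spread between these samples.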

Additional observations from a re-analysis of the deposited data

Results flagged for a closer look

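For each gene, the highest and lowest sample of a group was compared with the other 5 by Dixon's test. It marked 8 of the 72 groups (11.1%), and chance marks about 1 in 20. Of the 8, 6 were values of tumor 5. There, Eprs was at 226 CPM (162.7 to 177.1 in the other tumors), Farsb at 149 CPM (68.9 to 95.1), Gars at 99.2 CPM (67.9 to 74.6), Sars at 293 CPM (216 to 244) and Tars at 120 CPM (63.6 to 77.7), each above the rest, and Yars at 37.2 CPM was below the rest (49.8 to 54.1). Cars2 was low in tumor 2, at 33.01 CPM against 37.5 to 40.0 CPM. Wars2 was high in benign sample 1, at 18.3 CPM against 10.8 to 13.3 CPM. Without the marked sample, Farsb lost its call, and Cars2 and Wars2 gained one, with log2 fold changes of 0.26 and 0.29 (edgeR adjusted p = 0.0536 and 0.0894).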

How the results depend on the processing

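Of the 17 synthetase genes called, 12 kept their direction and their side of the threshold in all 21 alternatives, and no gene changed direction with a call. The other 5 lost the call in some setting: Farsb in 8, Dars in 3, Iars2 and Mars1 in 2 each and Fars2 in 1. Of the 19 not called, 6 gained a call in some setting, Hars in 14. The mitochondrial genes called higher were 2 with total-count scaling, with a filter of 1 count in total, without benign samples 3, 4 and 6, and with the muscle score and Ucp1 as covariates, and those called lower were 2 with the covariates. Leaving out 1 sample at a time gave 5 to 8 cytosolic genes higher and 5 lower throughout, 1 to 4 mitochondrial genes higher (4 without benign sample 1, 2 without tumor 2 or tumor 6) and 4 to 5 lower. The cytosolic median ran from -0.01 (without benign sample 4) to 0.12, and it was 0.24 with the covariates. The mitochondrial median ran from -0.237 to -0.0688 when 1 sample was left out (-0.0963 without tumor 2, -0.0688 without tumor 5), and it was 0.031 without benign samples 3, 4 and 6 and 0.0712 with the covariates. The causes were not tested. Total-count scaling moved the median of all genes from -0.06 to 0.03, and a filter of 10 counts in every sample moved the share of higher calls over all genes from 44.7% to 53.1%. Same-numbered samples of the groups shared only a number: their deviations correlated between -0.12 and 0.10, and no sample correlated best with its own number. With the replicate block, 5 cytosolic genes were higher and 5 lower, and 1 mitochondrial gene was higher and 4 lower. Depth limited Pars2 most, whose lowest count was 17.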
